A study of Mus musculus with 5 samples.

Results

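The 37 genes described here encode machinery that carries a cell through mitosis. They were chosen by name, with earlier results of these data known. They make up 37 of the 28001 features counted in each library, and all 37 were found by symbol and passed the filter on low counts in every test below. They were grouped into 7 roles: 7 mitotic kinases and cyclins, 2 proteins of chromatin and chromosome structure, 8 kinetochore and checkpoint proteins, 2 partners in the chromosomal passenger complex, 9 spindle motors and spindle-binding proteins, 3 ubiquitin ligase proteins and partners, and 6 cytokinesis proteins.

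Single-cell RNA was counted with a 3′ droplet kit in 5 libraries of sorted tdTomato-positive cells from C57BL/6J mice. The muscle library held resting mesenchymal progenitors of the hindlimb (genotype Hic1CreERT2/CreERT2;Rosa26LSLtdTomato/+). The 4 sarcoma libraries held epithelioid sarcoma cells taken at endpoint from the shoulder, the head, the head/ear and the hip. Their genotype was Hic1CreERT2/CreERT2;Rosa26LSLtdTomato/LSLtdTomato;Smarcb1FL/FL, and they are numbered 1 to 4 in that order. All animals carried the tamoxifen-activated Cre in both copies of Hic1 and were given tamoxifen at 8 weeks of age, 2.5 mg a day for 5 days in 100 µL sunflower oil, then 10 days without injection. Cre acts only in cells that express Hic1, so normal reporter-positive cells can be sorted together with tumour cells. The groups differ at once in genotype, in copies of the reporter, in where the tissue came from and in being tumour or not, and these cannot be told apart, and the labels do not say whether each sarcoma came from its own animal or whether animals were pooled. P-values therefore reflect no more than how far these samples spread, part of which may be technical.

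Mitosis is driven by the kinase CDK1 with B-type and A-type cyclins. Aurora and Polo-like kinases also act in mitosis. The spindle checkpoint at the kinetochore holds chromosome separation back until every chromosome is attached. The anaphase-promoting complex (APC/C) then marks cyclin B and securin for destruction, and the contractile ring divides the cell. Transcripts of these genes are known to peak in the G2 and M phases of dividing cells and to be low in resting cells, where the DREAM complex represses many of them through a promoter element called the CHR. In cycling cells the factors B-MYB and FOXM1 act through the same element, often beside CCAAT boxes bound by NF-Y.

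The promoters below show these elements for the 6 genes of highest mean level, among those described value by value, that hold a CHR-type match and a CCAAT box. RefSeq promoter sequences (build GRCm38.p6, 250 bases before to 50 after each start) matched 33 of the 37 genes, with 35 promoters in all; the other genes are Ccna2, Kif20a, Aurkb and Tpx2. Each line gives 150 bases, 5′ to 3′ on the strand of the gene, in lower case, with every CHR-type match (TTTGAA or its reverse complement TTCAAA, and TTTAAA) and CCAAT box (CCAAT or its reverse complement ATTGG) in capitals. The stretches are chr10:69352913-69353062 on the minus strand for Cdk1, chr2:164769778-164769927 on the plus strand for Ube2c and chr11:99024190-99024339 on the minus strand for Top2a. For Cenpa the stretch is chr5:30666657-30666806 on the plus strand, for Prc1 chr7:80294326-80294475 on the plus strand and for Cdc20 chr4:118437344-118437493 on the minus strand. They end at the last base before the RefSeq start, except Ube2c and Cenpa, which end 1 and 79 bases earlier.
Cdk1: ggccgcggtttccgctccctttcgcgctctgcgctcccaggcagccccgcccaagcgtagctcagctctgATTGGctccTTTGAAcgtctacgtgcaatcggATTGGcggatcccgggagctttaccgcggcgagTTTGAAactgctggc
Ube2c: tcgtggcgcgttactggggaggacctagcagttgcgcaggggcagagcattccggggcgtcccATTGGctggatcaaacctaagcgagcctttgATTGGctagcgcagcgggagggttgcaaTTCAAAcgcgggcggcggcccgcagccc
Top2a: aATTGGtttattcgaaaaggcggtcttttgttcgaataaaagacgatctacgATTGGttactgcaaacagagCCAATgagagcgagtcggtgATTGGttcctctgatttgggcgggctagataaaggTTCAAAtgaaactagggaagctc
Cenpa: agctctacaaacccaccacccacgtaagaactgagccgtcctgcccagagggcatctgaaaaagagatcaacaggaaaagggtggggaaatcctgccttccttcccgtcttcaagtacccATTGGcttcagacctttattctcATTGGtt
Prc1: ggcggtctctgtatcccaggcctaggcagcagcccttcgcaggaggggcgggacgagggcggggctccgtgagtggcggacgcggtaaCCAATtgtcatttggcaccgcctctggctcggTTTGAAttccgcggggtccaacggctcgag
Cdc20: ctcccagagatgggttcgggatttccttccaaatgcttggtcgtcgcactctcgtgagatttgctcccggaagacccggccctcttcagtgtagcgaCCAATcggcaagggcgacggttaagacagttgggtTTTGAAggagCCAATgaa

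TTTGAA on either strand was found in 80% of the 35 promoters and in 17.9% of all 32851 promoters of the same length. A CCAAT box was found in 77.1% of them and in 37.4% of all promoters, and 2 or more CCAAT boxes in 51.4% against 11.7%. TTTGAA or TTTAAA stood together with a CCAAT box in 74.3% of the promoters of these genes and in 10.7% of all promoters. CCAAT matches had their median position 68 bases before the start, and 44 of the 65 lay in the last 100 bases before it. TTTGAA matches had a median position of 3 bases after the start, with 20 of the 37 matches after it; in Cenpa, whose printed stretch ends earlier, TTTGAA begins 17 bases after and TTTAAA 17 bases before the start. Matches may overlap one another, and TTTAAA, which reads the same on both strands, was counted once. The windows of Nuf2, Nusap1 and Tacc3 held none of these letters. A match is a description of letters and does not show that a factor binds.

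**Figure D1:**
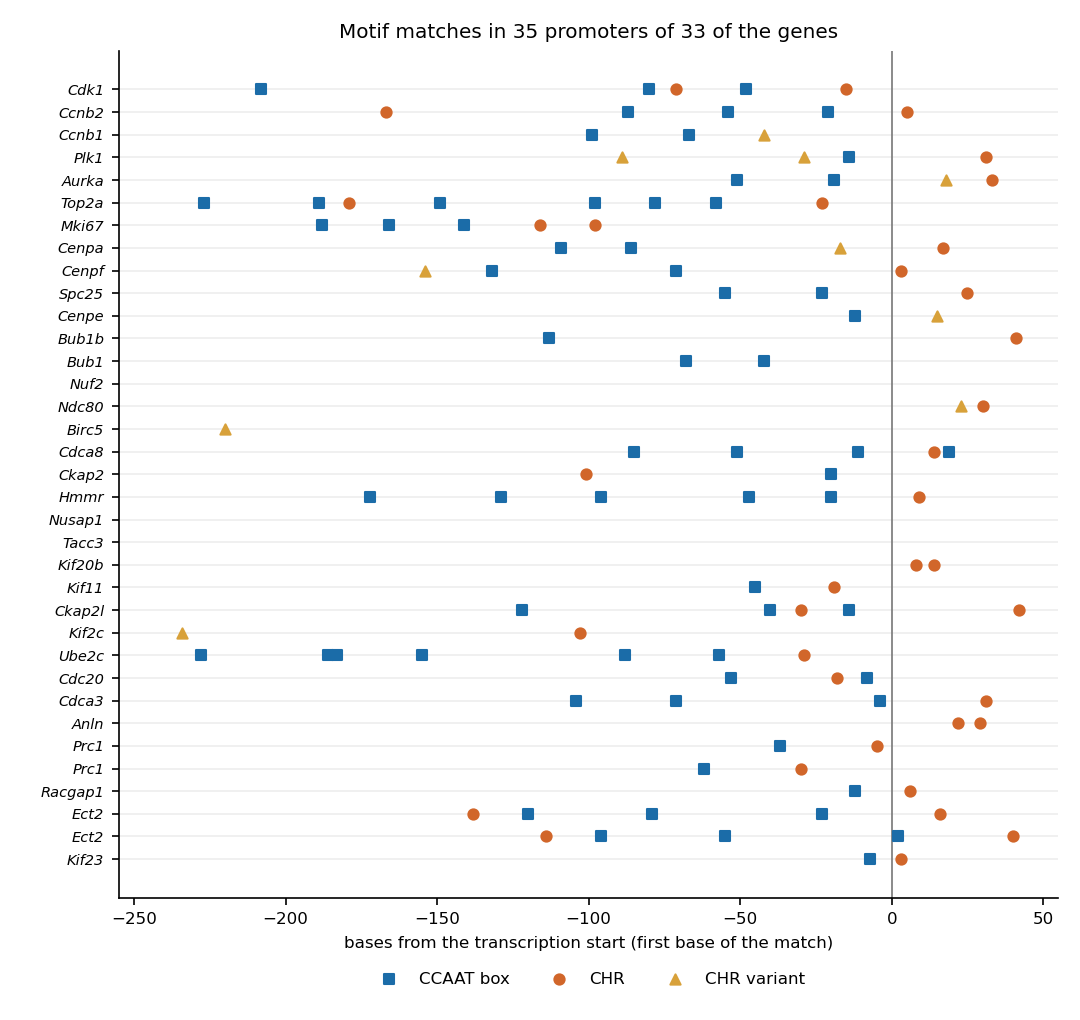
Matches in 35 promoters of 33 mitotic genes, by the distance in bases of each match's first base from the RefSeq transcription start (x axis). Squares are CCAAT boxes, circles the CHR letters and triangles the CHR variant; CCAAT boxes centre on a median of 68 bases before the start and the CHR letters on a median of 3 bases after it.

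The libraries held 63300999 UMIs (unique molecular identifiers, each counting 1 captured RNA molecule) in the kept muscle cells and 150323199 to 211830490 in the kept cells of the sarcomas, over 8107 muscle cells and 6824 to 8206 cells per sarcoma. The median muscle cell had 7566 UMIs and the median sarcoma-library cell 20005 to 28658. Libraries shared 12 to 22 cell barcodes per pair. The white blood cell gene Ptprc lay at 0.158 CPM (UMIs per 1e6 UMIs) in muscle and between 0.00504 and 0.132 CPM in every sarcoma library. Ptprc does not stand for all blood cell markers. Of 11 tested features named as haematopoietic markers, 9 had a positive log2 fold change of sarcoma libraries over muscle. The median was 1.49 and the range -1.73 to 12.7. Itgam is the symbol of 2 features, so the 11 need not be different genes. Of these 11, 3 were higher and 2 lower in all 4 sarcomas, where 21.4% of all genes tested were higher.

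Each sarcoma library was divided by the chosen rules into stroma (4 or more UMIs of Ddah1, Wisp1, C1qtnf7 and Fbn2 together), mural cells (Rgs5 at 5 or more UMIs per 10,000) and the remaining cells, called sarcoma cells here. Stroma held 215, 177, 1777 and 170 cells in sarcomas 1 to 4, mural cells 202, 171, 248 and 26, and sarcoma cells 7007, 7855, 4906 and 6628. In all libraries together 32 cells met both rules and were left out of the classes. The targeted gene Smarcb1 checked the division: sarcoma cells held 0.827, 1.07, 4.56 and 0.236 CPM of it, mural cells 42.6, 67.7, 67.5 and 73.7, and all kept muscle cells 88.7. The floxed exons of Smarcb1 are not named in the labels, and a 3′ tag outside it would check nothing. Stroma held 31.8, 56.3 and 56.4 CPM of Smarcb1 in sarcomas 1 to 3 but 3.96 in sarcoma 4. In sarcoma 4 the stroma rule also picked cells with 174 CPM of the fibroblast gene Dcn, against 2670 to 6445 in the other sarcomas, and with 123 CPM of Cdkn2a, against 14.4 to 79.4 in the stroma of the other sarcomas and 114 in the sarcoma cells of the same library. Dcn alone does not separate the classes in sarcoma 2, where sarcoma cells held 4070 CPM and stroma 3718. These values go against the name stroma in sarcoma 4, and the main values of the comparison with stroma are given with and without that library.

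Summed over the 37 genes, sarcoma libraries held far more mitotic RNA than muscle. The sum was 54.4 CPM in muscle (95% Poisson interval 52.6 to 56.2, for counting error only). Sarcomas 1 to 4 held 1184, 1020, 458 and 711 CPM, a mean of 843 ± 323 (SD, n = 4). The lowest sarcoma lay 8.42-fold and the highest 21.8-fold above muscle, and the sarcomas differed among themselves by 2.58-fold. Without the 6% of cells with the most UMIs muscle held 40.9 CPM, while sarcomas 1 to 4 held 1059, 857, 252 and 583 CPM, so sarcoma 3 lay 6.16-fold above muscle and the sarcomas differed 4.20-fold. Immediate-early and heat-shock genes, which can respond to handling of the tissue, moved with this comparison: they summed to 27384 CPM in muscle, while sarcomas 1 to 4 held 7095, 5940, 7077 and 6324 CPM. Of these 16 genes, 14 were lower in all 4 sarcomas (median log2 fold change -1.54), as were 5566 of the 18739 genes tested. Their part in the result was not tested. Each of the 37 genes was higher in all 4 sarcomas than in muscle, a pattern met by 21.4% of the 18739 genes tested. The fitted log2 fold changes had a median of 4.18 over the 37 genes and of 0.22 over all genes, and ran from 2.05 for Tacc3 to 5.87 for Cdk1. All 37 had an unadjusted p under 0.05 in edgeR's quasi-likelihood test, as did 1715 of the 18739 genes, but none passed with Benjamini-Hochberg adjustment, the adjusted p lying between 0.416 and 0.525. Over all genes edgeR called 0% higher. With scaling by library size alone the medians were 3.93 for the 37 genes and 0.02 for all genes. DESeq2 called 36 of the 37 higher (all but Tacc3), where it called 3.53% of all genes higher, and limma-voom called 0 with 7 of the 37 at an unadjusted p under 0.05. With 1 muscle library the fit assumes that muscle varies like the sarcomas, and an exact permutation test of 1 library against 4 could not fall below 0.2. In bulk sums such as these, fewer dividing cells and less RNA per dividing cell cannot be told apart.

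**Figure D2:**
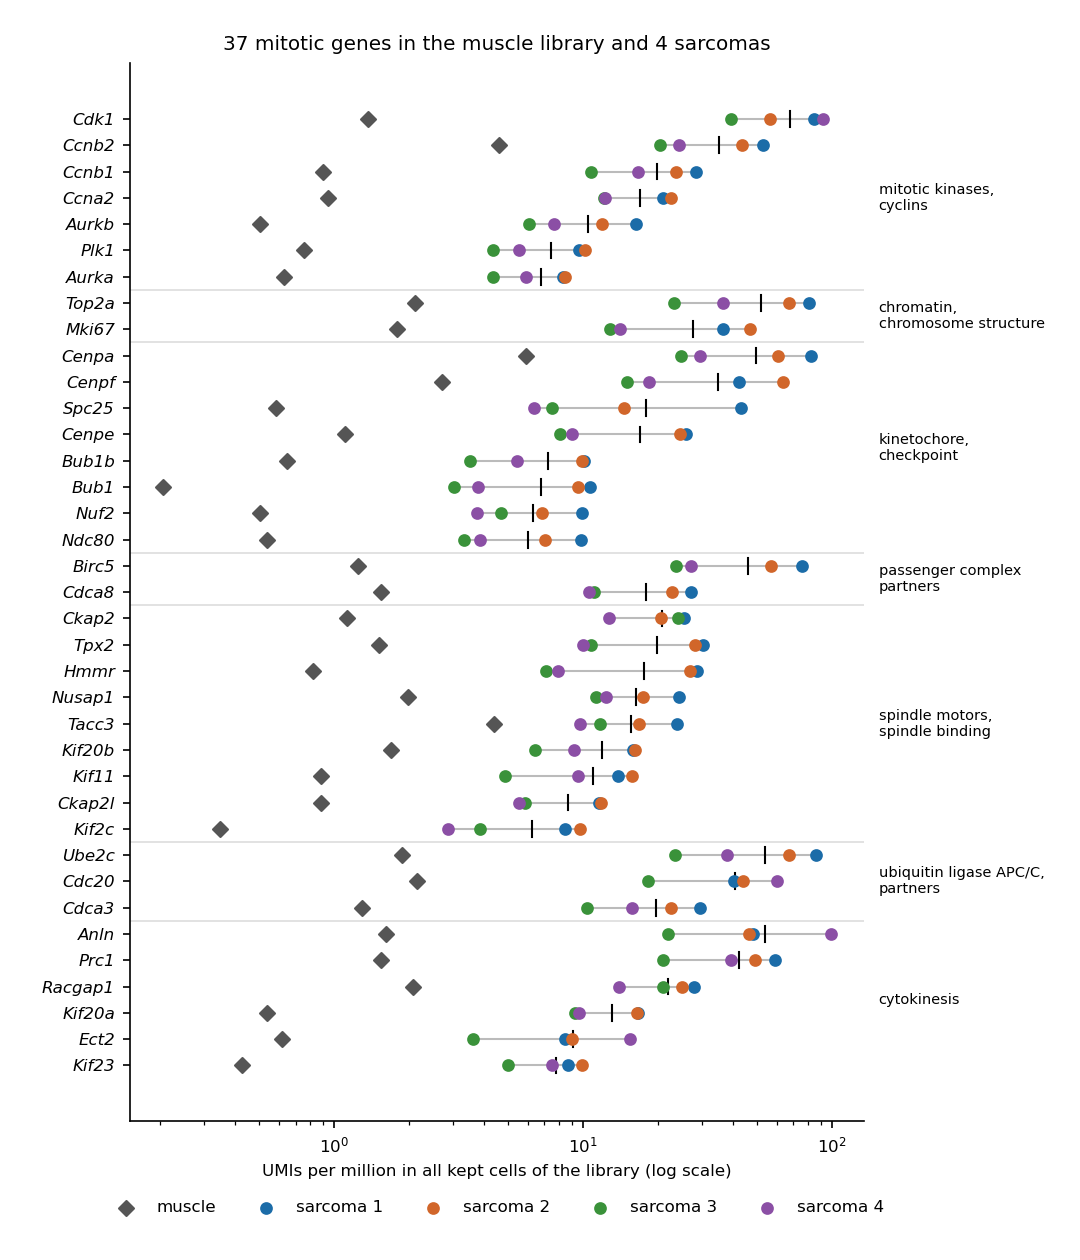
Level of each of the 37 genes in UMIs per 1e6 over all kept cells of a library (x axis, log scale), grouped by role; diamonds are the muscle library, circles the 4 sarcomas, grey lines their range and black ticks their mean. Every circle lies to the right of its diamond, and sarcoma 4 has the highest circle for Cdk1, Cdc20, Anln and Ect2.

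Among the kinases and cyclins, Cdk1, the kinase that drives entry into mitosis, was counted at 1.37 CPM in muscle, while sarcomas 1 to 4 held 84.3, 56.3, 39.4 and 92.3 CPM. Its log2 fold change of 5.87 ± 0.97 (SE) was the largest of the 37 genes (edgeR adjusted p = 0.416). The groups do not overlap, and sarcoma 4 was highest. Ccnb2, a B-type cyclin that activates CDK1, was counted at 4.60 CPM in muscle, while the sarcomas held 52.9, 43.6, 20.3 and 24.4 CPM (log2 fold change 3.18 ± 0.90, SE). Ccnb1, the main mitotic cyclin, was counted at 0.900 CPM in muscle, while the sarcomas held 28.4, 23.6, 10.8 and 16.6 CPM. For both cyclins sarcoma 1 was highest and sarcoma 3 lowest. The other 4 members of this group, Ccna2, Aurkb, Plk1 and Aurka, had sarcoma means of 6.77 to 17.0 CPM and log2 fold changes of 3.53 to 4.61. UMIs at the 3′ end also depend on how well each gene is captured, so levels of different genes are not ranked here as amounts of RNA.

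For chromosome structure, Top2a, the topoisomerase that untangles sister chromatids, was counted at 2.12 CPM in muscle, while sarcomas 1 to 4 held 81.1, 67.2, 23.2 and 36.7 CPM (log2 fold change 4.87 ± 1.18, SE). Mki67, whose protein Ki-67 coats mitotic chromosomes and marks cycling cells, was counted at 1.79 CPM in muscle, while the sarcomas held 36.5, 46.9, 12.8 and 14.0 CPM (4.20 ± 1.27, SE). Sarcomas 1 and 2 were high and sarcomas 3 and 4 low for both genes. At the kinetochore, Cenpa, the histone variant that marks centromeres, lay at 5.92 CPM in muscle, while the sarcomas held 82.6, 60.7, 24.7 and 29.4 CPM. Cenpf, a large protein of the outer kinetochore, lay at 2.70 CPM in muscle, while the sarcomas held 42.3, 63.5, 15.0 and 18.4 CPM, with sarcoma 2 highest. Spc25, a subunit of the NDC80 complex that grips microtubules, lay at 0.585 CPM in muscle, while the sarcomas held 43.1, 14.6, 7.48 and 6.34 CPM. Sarcoma 1 stood above the others for Spc25. Its partners Ndc80 and Nuf2 were spread less, at 9.79, 7.001, 3.31 and 3.87 CPM and at 9.93, 6.87, 4.70 and 3.74 CPM in sarcomas 1 to 4. The checkpoint kinase genes Bub1 and Bub1b had sarcoma means of 6.75 ± 3.89 and 7.24 ± 3.28 CPM (SD, n = 4), and the kinetochore motor gene Cenpe one of 16.9 ± 9.70 CPM.

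Of the passenger complex, Birc5 (survivin) was counted at 1.25 CPM in muscle, while sarcomas 1 to 4 held 75.7, 56.7, 23.6 and 27.2 CPM, and Cdca8 (borealin) at 1.55 CPM and at 27.1, 22.7, 11.02 and 10.6. Sarcomas 1 and 2 were again high and sarcomas 3 and 4 low. Among spindle proteins, Tpx2, which activates Aurora A at the spindle, was counted at 1.52 CPM in muscle, while the sarcomas held 30.4, 28.1, 10.8 and 9.98 CPM, and Hmmr, a spindle pole protein, at 0.821 CPM and at 28.7, 26.8, 7.13 and 7.96. Ckap2, a microtubule-binding protein, did not follow that order: it lay at 1.12 CPM in muscle, while the sarcomas held 25.5, 20.6, 24.1 and 12.7 CPM, so sarcoma 3 was near the top. Tacc3, which crosslinks spindle microtubules, was counted at 4.39 CPM in muscle, while the sarcomas held 23.9, 16.8, 11.7 and 9.74 CPM. Its log2 fold change of 2.05 ± 0.76 (SE) was the smallest of the 37. Nusap1 and Ckap2l, which bind spindle microtubules, had sarcoma means of 16.3 and 8.70 CPM. The motors Kif11, Kif20b and Kif2c had log2 fold changes of 3.89, 3.06 and 4.40.

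Ube2c, the enzyme that loads ubiquitin for the APC/C, was counted at 1.88 CPM in muscle, while sarcomas 1 to 4 held 86.6, 67.2, 23.4 and 37.7 CPM. Cdc20, the activator of the APC/C at anaphase, was counted at 2.15 CPM in muscle, while the sarcomas held 40.2, 43.8, 18.3 and 60.3 CPM. Sarcoma 4 was the highest for Cdc20 and the third for Ube2c. Cdca3, a partner in ubiquitin ligation that promotes mitotic entry, had 29.6, 22.6, 10.4 and 15.7 CPM in sarcomas 1 to 4, against 1.30 in muscle. The cytokinesis gene Anln, which encodes the ring scaffold anillin, was counted at 1.61 CPM in muscle, while the sarcomas held 48.0, 46.6, 22.04 and 98.7 CPM (log2 fold change 5.32 ± 1.31, SE). Ect2, which switches on RhoA for the ring, was also highest in sarcoma 4, at 8.46, 9.06, 3.62 and 15.4 CPM in sarcomas 1 to 4 against 0.616 in muscle. Prc1, the bundler of midzone microtubules, was counted at 59.2, 49.3, 21.0 and 39.3 CPM in sarcomas 1 to 4, with 1.55 in muscle. Racgap1, a subunit of centralspindlin with Kif23, was counted at 27.9, 24.98, 21.0 and 13.9 CPM in the sarcomas, with 2.07 in muscle. The kinesin genes Kif20a and Kif23 had sarcoma means of 13.03 and 7.77 CPM.

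Cell by cell, the sum of the 37 genes was spread very unevenly. The median cell held 0 in muscle and 1.44, 1.28, 0.782 and 2.26 UMIs of these genes per 10,000 UMIs in sarcomas 1 to 4, while the 95th percentile was 1.91 in muscle but 57.8, 50.2, 5.64 and 14.0 in sarcomas 1 to 4. The highest cell of any library held 290 per 10,000 and was a muscle cell. Sarcoma 4 had the highest median and only the third 95th percentile, so its sum was spread over more cells at a lower level.

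**Figure D3:**
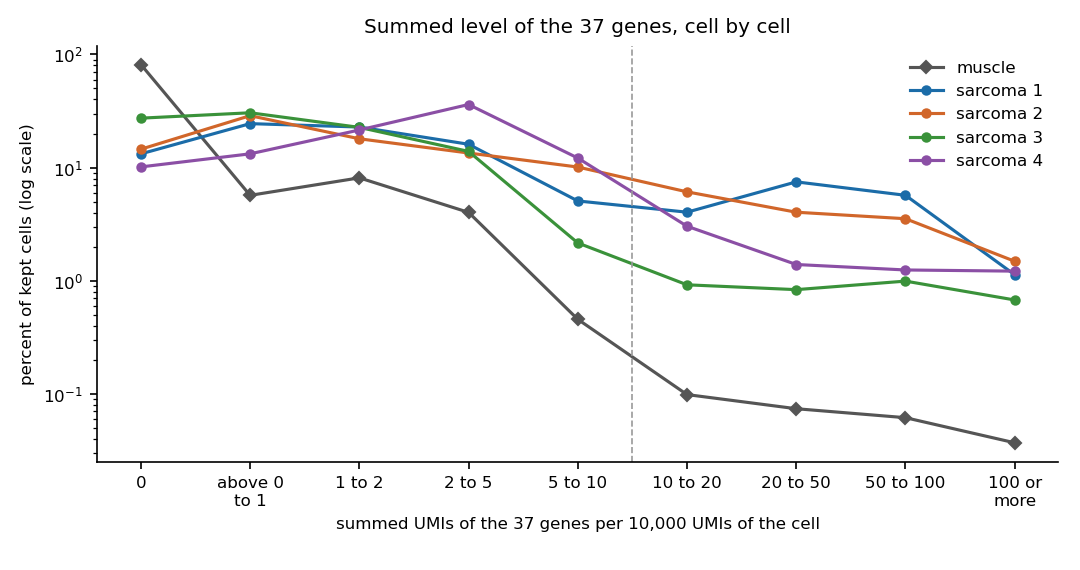
Percent of kept cells (y axis, log scale) in each range of the summed level of the 37 genes, in UMIs per 10,000 UMIs of the cell (x axis), by library; the dashed line marks 10 per 10,000. In muscle 81.4% of cells lie at 0, and 36.1% of the cells of sarcoma 4 lie between 2 and 5 per 10,000.

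To compare shares at equal depth, UMIs were drawn at random from each cell until 2000 were held, which excluded the cells with fewer (384 in muscle and 120, 264, 144 and 349 in sarcomas 1 to 4). A UMI of any of the 37 genes was then found in 5.85% of muscle cells (exact 95% binomial interval 5.34 to 6.40) and in 38.7%, 37.4%, 21.2% and 41.2% of cells in sarcomas 1 to 4 (34.6% ± 9.12, SD, n = 4). Unthinned, the shares were 18.6% and 86.8%, 85.5%, 72.7% and 89.9%. Sarcoma 4 was highest at 1 or more UMIs, but at 5 or more UMIs its share was 3.92%, against 13.03%, 8.70% and 2.40% in sarcomas 1 to 3 and 0.142% in muscle. Free RNA in the droplets gives some UMIs in cells that do not express a gene. The muscle share of 5.85% (median depth of these cells 7819 UMIs before thinning) covers every thinned muscle cell, those with many UMIs of these genes included. It does not give the free RNA of the sarcoma libraries. Within the sarcoma libraries the lowest share of the classes described below was the 10.8% of stroma in sarcoma 3 (median depth 21628 UMIs). The part of free RNA in the sarcoma shares was not tested.

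Cells were called high when these genes reached 10 or more UMIs per 10,000 with 3 or more of the genes detected, which is a range of a score and not a cell type. High cells numbered 17 of 8107 in muscle, or 0.210% (exact 95% interval 0.122 to 0.336), and made up 18.0%, 14.4%, 3.27% and 5.99% of cells in sarcomas 1 to 4. Between 8 and 12 per 10,000, near the threshold, lay 0.0863% of muscle cells and 2.80%, 5.20%, 0.720% and 3.47% of sarcoma-library cells. Stroma made up 25.6% of the kept cells of sarcoma 3, against 2.16% to 2.89% in the other sarcomas. Among sarcoma cells alone, high cells made up 18.5%, 14.6%, 3.81% and 6.07% in sarcomas 1 to 4. Over all kept cells, the share of high cells differed 5.51-fold between the highest and the lowest sarcoma. Summed over the high cells, the level was 4814, 5455, 6124 and 6127 CPM in sarcomas 1 to 4. The median high cell held 40.8, 32.2, 52.9 and 30.5 UMIs of these genes per 10,000, a 1.73-fold range in which sarcoma 4 was lowest, and the threshold itself bounds the level of high cells from below. In muscle the 17 high cells held 7749 CPM. High cells were deeper than the rest in each library, with a median of 30505, 29052, 37954 and 37222 UMIs against 23051, 24426, 19694 and 28328 in sarcomas 1 to 4 and 11209 against 7564 in muscle, and doublets were not removed. Without the 6% of cells with the most UMIs, high cells made up 16.6%, 13.3%, 2.01% and 5.25% of cells in sarcomas 1 to 4 and 0.144% in muscle, an 8.29-fold range over the sarcomas, and the mean over the sarcomas was 9.29% against 10.4% with them. Of the sarcomas, sarcoma 3 lost the largest part of its share.

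In sarcomas 1 to 4 high cells held most of the UMIs of these genes, namely 88.8%, 87.7%, 75.5% and 64.1%, and in muscle they held 46.7%. By the mean over the sarcomas Hmmr had the largest share in them, with 94.3% to 98.8%, and Bub1 the next, with 91.0% to 96.2%. Other genes had smaller shares that differed by library: Cdk1 had 73.5%, 74.5%, 50.9% and 34.8% of its UMIs in high cells of sarcomas 1 to 4, Anln 73.0%, 75.6%, 51.0% and 19.4%, and Cdc20 91.2%, 86.7%, 83.8% and 54.0%. Sarcoma 4 was lowest for each. The definition of high cells uses these genes, so these shares are a description.

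Cells without the core of the module were then taken as those with no UMI of Top2a, Mki67, Ube2c, Birc5, Hmmr and Cenpf, a set of 6 genes chosen after the values were seen. They made up 55.1%, 47.5%, 77.0% and 74.0% of the sarcoma cells in sarcomas 1 to 4, with median depths of 17779 to 25822 UMIs, and 97.97% of the muscle cells outside both rules, with a median depth of 7860. In them Cdk1 was still found at 25.9, 13.7, 22.9 and 58.5 CPM in sarcomas 1 to 4, with 0.406 CPM in muscle. Anln was counted at 15.2, 10.8, 13.3 and 84.3 CPM in the sarcomas and at 1.13 in muscle, and 56.9% of these cells in sarcoma 4 had an Anln UMI against 14.7% to 18.6% in the other sarcomas. Cdc20 stood at 34.1 CPM in sarcoma 4 against 2.67 to 6.64 in the others, Ect2 at 7.84 against 0.639 to 0.904 and Prc1 at 17.1 against 3.92 to 8.27. Plk1, Aurka and Bub1, by contrast, lay at no more than 0.806, 0.723 and 0.275 CPM in these cells of any sarcoma.

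Per UMI of Ube2c, sarcoma 4 held 0.552 Anln UMIs in high sarcoma cells and 32.9 in the others. Sarcomas 1 to 3 held 0.429, 0.584 and 0.618 in high cells and 2.84, 1.74 and 4.95 in the others. High cells are defined by a sum that includes both genes, and Ube2c is low outside them, so these ratios are a description. The 23 mural cells of sarcoma 4 without the 6 genes held 2 Anln UMIs, or 8.83 CPM, against 84.3 CPM in the sarcoma cells of that library and 83.6 CPM in its cells picked by the stroma rule. Other genes stood apart in other libraries: Spc25 lay at 12.04 CPM in such cells of sarcoma 1 against 0.653 to 2.50 in the other sarcomas, and Ckap2 at 17.7 CPM in sarcoma 3 against 2.87 to 8.00. Kif2c and Ckap2l were low throughout, at 0.229 to 0.406 and 0.378 to 0.645 CPM in the 4 sarcomas.

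**Figure D4:**
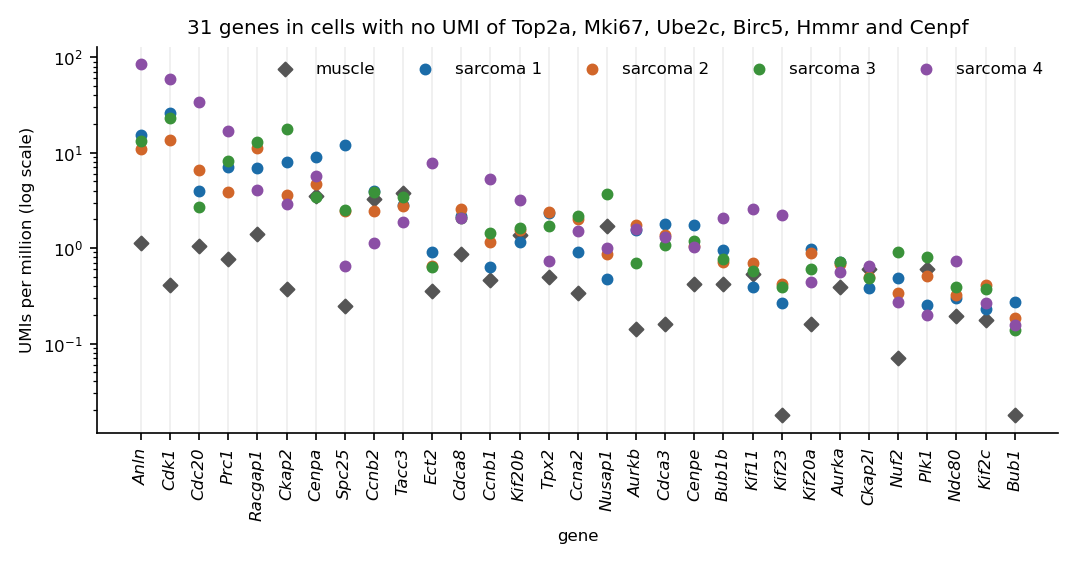
Level of the other 31 genes (y axis, UMIs per 1e6, log scale) in cells with no UMI of 6 core mitotic genes, for sarcoma cells of the 4 sarcomas (circles) and muscle cells outside both class rules (diamonds), ordered by mean over the sarcomas. Sarcoma 4 stands above the other circles for Anln, Cdk1, Cdc20, Prc1 and Ect2, sarcoma 1 for Spc25 and sarcoma 3 for Ckap2.

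UMIs of the mitotic genes were also counted in cells picked by the stroma and mural rules of the sarcoma libraries, and most of them came from few cells. The sum was 1197, 1036, 529 and 712 CPM in sarcoma cells of sarcomas 1 to 4, and 864, 600, 253 and 714 CPM in stroma, against 23.4 CPM in the 173 stroma-rule cells of muscle. Sarcomas 1 to 3 were higher in sarcoma cells than in stroma. In sarcoma 4, where the rule goes against its name, the stroma value of 714 CPM rests on 6 high cells that held 64.2% of its member UMIs. Stroma of sarcoma 4 held 1277 CPM with the rule at 8 UMIs and 449 CPM with Fbn2 left out of it. Without the 6% of cells with the most UMIs the sums were 1073, 870, 311 and 593 CPM in sarcoma cells and 611, 576, 92.8 and 260 CPM in stroma. Stroma was then lower in all 4 sarcomas, but in sarcoma 4 the cut fell unevenly on the classes. It kept 137 of its 170 stroma cells and 6252 of its 6628 sarcoma cells. The share of high cells in that stroma fell from 3.53% to 0.730%, so the cut removed cells that carried its value. In sarcomas 1 to 3 the 24, 12 and 31 high stroma cells held 87.9%, 87.8% and 78.0% of the stroma UMIs of these genes, and the other stroma cells of sarcomas 1 to 4 stood at 124, 79.5, 57.6 and 270 CPM. The 24 high stroma cells of sarcoma 1 also differed from its other stroma in genes of identity: they held 5.63 CPM of Smarcb1 against 36.7, 1239 CPM of Ccnd1 against 326 and 7364 CPM of the progenitor markers against 29112. In sarcomas 2 and 3 high stroma cells held 62.0 and 39.7 CPM of Smarcb1, against 55.8 and 56.9 in other stroma. Their Ccnd1 was 221 and 699 CPM against 126 and 76.5. Their progenitor markers summed to 29071 and 26650 CPM against 39115 and 50091. What these few cells are was not tested. At 2000 UMIs per cell the shares with a UMI of these genes were 39.5%, 38.0%, 24.95% and 41.5% in sarcoma cells and 23.8%, 18.6%, 10.8% and 32.4% in stroma. Their binomial intervals do not overlap within sarcomas 1 to 4, but these intervals cover counting error only. Cells of 1 library are not replicates, so the intervals do not test the difference between classes. Median depths before thinning were 24578, 25724, 19979 and 29636 UMIs in sarcoma cells of sarcomas 1 to 4. In stroma they were 22579, 27700, 21628 and 39478, so stroma of sarcoma 4 was deeper than its sarcoma cells. The stroma rule is a count of UMIs not scaled to depth, so deeper cells can meet it more easily. The part of this was not tested.

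With the library as a block, all 37 genes had a positive log2 fold change of sarcoma cells over stroma, with a median of 0.61 against 0.11 over the 16920 genes tested. None of the 37 passed at an adjusted p under 0.05 in edgeR's quasi-likelihood test, although 24 had an unadjusted p under 0.05. Over all genes 0.0177% were called higher and 0.1% lower, and 4390 had an unadjusted p under 0.05. In 15 of the 37 the level was higher in sarcoma cells of all 4 libraries, against 18.6% of all genes. Cdk1 was counted at 66.4, 33.1, 18.5 and 84.9 CPM in stroma and at 85.2, 57.2, 46.9 and 92.7 in sarcoma cells of the same libraries (log2 fold change 0.69 ± 0.20, SE, adjusted p = 0.152). Anln was counted at 29.8, 14.8, 8.00 and 96.7 CPM in stroma and at 48.8, 47.7, 27.9 and 98.9 in sarcoma cells (1.09 ± 0.32, SE, adjusted p = 0.152). Top2a was counted at 55.4, 21.3, 13.2 and 54.7 CPM in stroma and at 82.6, 68.8, 26.6 and 36.0 in sarcoma cells, so sarcoma 4 went the other way. Mki67, Ube2c and Prc1 were likewise lower in sarcoma cells of sarcoma 4 alone.

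Without sarcoma 4, the median log2 fold change of the 37 genes was 0.77, and 34 of them had an unadjusted p under 0.05, as did 4962 of the 16408 genes. Then edgeR called 0.731% of all genes higher and, of the 37, Spc25 (log2 fold change 1.01 ± 0.13, SE, adjusted p = 0.0467) and Racgap1 (1.01 ± 0.14, SE, adjusted p = 0.0490). Cdk1 had 0.84 ± 0.21 (SE, edgeR adjusted p = 0.0915), Anln 1.40 ± 0.26 (SE, adjusted p = 0.0643) and Top2a 1.09 ± 0.27 (SE, adjusted p = 0.0916). DESeq2 and limma-voom were not run without that library. With Fbn2 left out of the stroma rule and without sarcoma 4, a choice made after the data were seen, 11 of the 37 were called higher, including Cdk1, Anln, Prc1, Mki67 and Cenpf, against 2.57% of all genes. When stroma cells with a Smarcb1 UMI were set against sarcoma cells with none in all 4 libraries, also chosen after the data were seen, 6 were called: Prc1, Mki67, Cdk1, Anln, Top2a and Kif20a, with log2 fold changes of 1.33 to 1.78, against 3.45% of all genes called higher. Without sarcoma 4 that division called 2 of the 37 and 4.16% of all genes higher. DESeq2 on the classes as first defined called 11 of the 37 and 5.17% of all genes higher, and limma-voom called 0 of the 37. Among high stroma cells a Smarcb1 UMI was found in 4 of 24, 7 of 12, 20 of 31 and 0 of 6 cells of sarcomas 1 to 4, against 49.7%, 66.1%, 66.5% and 7.93% of the other stroma cells and 0.850%, 1.48%, 2.14% and 0.249% of high sarcoma cells. In sarcoma 1 the high stroma cells stood at 16.7% (exact 95% interval 4.74 to 37.4) and its other stroma at 49.7% (42.4 to 57.0), with median depths of 33159 and 21324 UMIs.

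Mural cells, which wrap small vessels, held a summed level of 113 CPM in muscle and of 985, 452, 543 and 240 CPM in sarcomas 1 to 4. At 2000 UMIs per cell 7.79% of muscle mural cells and 29.0%, 26.8%, 22.2% and 25% of mural cells in the sarcomas had a UMI of these genes, the last on 20 cells with an interval of 8.66 to 49.1. Mural cells were shallower, with medians of 10921 to 12813 UMIs before thinning in the sarcomas and 3665 in muscle. High cells were 20 of 202, 25 of 171, 7 of 248 and 1 of 26 mural cells in sarcomas 1 to 4 and 2 of 751 in muscle. A Smarcb1 UMI was found in 11 of 20, 4 of 25, 5 of 7 and 0 of 1 of the high mural cells. Of the other mural cells 40.7%, 49.3%, 47.3% and 44% had a Smarcb1 UMI. The high mural cells of sarcoma 2 had a median of 3913 UMIs, against 11404 in its other mural cells, and held 963 CPM of Ccnd1 against 216. Without the 6% of cells with the most UMIs the mural sums were 1006, 354, 344 and 174 CPM in sarcomas 1 to 4. The mural rule is scaled to depth, so a shallow cell can meet it with few Rgs5 UMIs. With 5 or more Rgs5 UMIs also required, mural cells numbered 202, 136, 235 and 22 in sarcomas 1 to 4. Their sums were then 985, 398, 547 and 237 CPM. What the high mural cells are was not tested.

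**Figure D5:**
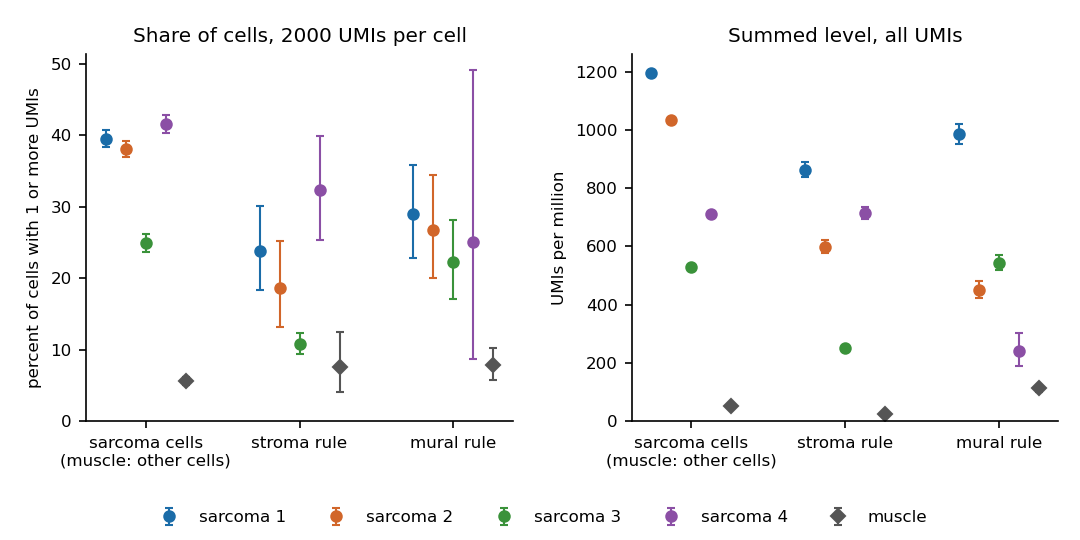
Share of cells with a UMI of the 37 genes at 2000 UMIs per cell (left, percent) and their summed level (right, UMIs per 1e6) in sarcoma cells, stroma and mural cells of each sarcoma (circles) and in the matching classes of muscle (diamonds); bars are exact 95% binomial and Poisson intervals for counting error only. Every sarcoma point lies above its muscle counterpart, with overlapping intervals on the left for stroma in sarcoma 3 and mural cells in sarcoma 4, and sarcoma cells lie above stroma on the left in all 4 sarcomas.

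Sarcoma cells against mural cells gave positive log2 fold changes for 36 of the 37 genes with the library as a block, with a median of 0.75 against 0.16 over the 15898 genes tested. Anln was the gene that passed: it was counted at 34.3, 12.3, 10.8 and 32.0 CPM in mural cells and at 48.8, 47.7, 27.9 and 98.9 in sarcoma cells of the same libraries (log2 fold change 1.49 ± 0.29, SE, edgeR adjusted p = 0.0329). Over all genes 4.55% were called higher and 5.47% lower, and 1 call in 37 genes is near that background. The adjusted p of Anln was 0.114, 0.0805 and 0.0648 without sarcoma 2, 3 or 4, and 0.222 with no library block. Without sarcoma 3 Top2a passed in its place, where 1.68% of all genes were called higher, and without sarcoma 4 Ckap2, where 5% were. In 6 of the 37 the level was higher in sarcoma cells of all 4 libraries, against 20.3% of all genes. Nuf2, a partner of Spc25 in the NDC80 complex, was the gene with a negative value (log2 fold change -0.36 ± 0.37, SE, adjusted p = 0.564), at 10.8, 5.93, 9.83 and 12.8 CPM in mural cells and 9.97, 6.95, 5.47 and 3.67 in sarcoma cells. Top2a had a log2 fold change of 1.01 ± 0.35 (SE, adjusted p = 0.135) and Cdk1 one of 0.95 ± 0.36 (SE, adjusted p = 0.158). With mural cells limited to those with a Smarcb1 UMI and sarcoma cells to those with none, 27 of the 37 were positive. In that division edgeR called none, with 2 at an unadjusted p under 0.05. It left 85, 76, 119 and 11 mural cells in sarcomas 1 to 4, with sums of 1372, 542, 873 and 45.1 CPM. Deeper cells can meet this limit more easily, and the part of depth was not tested.

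Other genes of the cell cycle were set beside these from lists drawn up by textbook role, with earlier results of these data known. Their counts stand beside the 21.4% of all genes that were higher in all 4 sarcomas and the median log2 fold change of 0.22 over all genes. Of 62 other G2/M genes, 55 were higher than muscle in all 4 sarcomas, with a median log2 fold change of 3.15; edgeR called none, with 45 at an unadjusted p under 0.05. H2afz, a histone variant, had 217 CPM in muscle and a sarcoma mean of 476. The tubulin gene Tubb4b, higher in 3 of 4 sarcomas, had 152 and 193 CPM, and Cks1b, a small CDK-binding protein, 84.8 and 182. Of 42 S-phase genes, 34 were higher in all 4 sarcomas with a median of 1.78; Rrm2, a subunit of ribonucleotide reductase, had 2.42 CPM in muscle and a sarcoma mean of 84.2. Of 21 genes of the DREAM complex and the transcription factors of mitosis, 11 were higher in all 4 with a median of 0.82. Foxm1, named here for its role in activating mitotic genes and chosen after its values were seen, was counted at 1.36 CPM in muscle, while sarcomas 1 to 4 held 5.96, 5.47, 3.69 and 2.94 CPM. In high cells it lay at 23.5, 27.1, 45.5 and 30.6 CPM, against 0.724 to 1.22 in the other cells of the sarcomas. Of 7 inhibitors of the cell cycle, 4 were higher and 2 lower in all 4 sarcomas. Their median log2 fold change was 0.88 and the lowest -3.18. Among those that rose, Cdkn1a (p21) had 223 CPM in muscle and a sarcoma mean of 362, and Cdkn2a 0.348 and 125.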

How the data were processed

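The deposited files are 1 matrix of raw UMI counts per library, with genes by barcodes. Per the file headers the authors made them from 3′ droplet reads using Cell Ranger 6.0.1; the submitters' processing notes name the build mm10. How cells were called and which annotation was used: not given in the sources used here. Groups came from the labels. The members, lists and tests were chosen with earlier results of these data known, and the lists and cell type rules come from that knowledge and from textbook roles.

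A cell was kept if it had 500 or more genes and no more than 10% of its UMIs from mitochondria. Cells were handled in Python 3.11.15 with pandas 2.3.3, scipy 1.17.1, numpy 2.4.6 and matplotlib 3.10.9. Doublets were not removed, and leaving out the 6% of cells with the most UMIs was an alternative. CPM is a count divided by the UMIs of the same cells, times 1e6. Thinning drew 2000 UMIs per cell without replacement. Sums per library, or per library and class, were tested with edgeR 4.0.16 (R 4.3.3; quasi-likelihood, TMM, filterByExpr, Benjamini-Hochberg over all genes, threshold 0.05). Classes of 1 library come from the same sort, so the library was a block. Alternatives were DESeq2 1.42.0, limma-voom 3.58.1, other scaling, no filter, all barcodes, thinned counts, other class thresholds, no block and leaving out each sarcoma. The tests were checked on simulated counts. Genes given value by value were the 2 to 4 of each role with the highest mean over the sarcomas, with Mki67, Top2a, Cdk1 and members that went against the rest; for other lists the 2 or 3 of highest mean.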

Additional observations from a re-analysis of the deposited data

Results flagged for a closer look

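In each set of 4 sarcomas the highest and the lowest library were compared with the rest, by the gap to the nearest other library as a share of the whole range. The gap passed Dixon's 95% critical value in 8 of 84 quantities, where chance alone gives about 1 in 20 for a single quantity. Quantities of the same cells are not independent, so the 8 cannot be set against that rate. All 8 were levels in sarcoma cells with no UMI of Top2a, Mki67, Ube2c, Birc5, Hmmr and Cenpf, a set chosen after the values were seen, and none was a library level of the 37 genes or a class sum. Sarcoma 4 was far above the other sarcomas for 6 genes in these cells: Anln at 84.3 CPM, Cdc20 at 34.1, Ect2 at 7.84, Ccnb1 at 5.28, Kif11 at 2.55 and Kif23 at 2.23. Nusap1, a spindle protein, stood out in sarcoma 3 at 3.70 CPM, against 0.469 to 0.991 in the others. Spc25 stood out in sarcoma 1 at 12.04 CPM, against 0.653 to 2.50 in the others.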

How the results depend on the processing

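Against muscle all 37 genes were positive under every setting run. Against stroma 36 were positive without sarcoma 3 and 35 with thinned counts, and against mural cells 35 without sarcoma 2, 34 with thinned counts and 27 with the division by Smarcb1 UMIs. Genes of the other lists were not refitted. Against muscle, DESeq2 called 1172 genes and 36 of the 37; every other setting, leaving out each sarcoma included, called 0. For sarcoma cells against stroma, where the main test called 20 genes and 0 of the 37, DESeq2 called 2698 and 11, limma-voom 549 and 0, thinned counts 545 and 1, the stroma rule at 2 UMIs 2 and at 8 UMIs 90, and leaving out each sarcoma 0 to 587 and 0 to 2. The rule without Fbn2 called 184 and 1, and also without sarcoma 4, 1087 and 11. The division by Smarcb1 UMIs called 1333 and 6, and without sarcoma 4, 1541 and 2. For sarcoma cells against mural cells, where 1593 genes and 1 of the 37 were called, DESeq2 called 2982 and 4, limma-voom 2018 and 0, thinned counts 1413 and 2, the division by Smarcb1 UMIs 1544 and 0, and leaving out each sarcoma 409 to 1766 genes and 0 to 1 of the 37. Genes called higher in sarcoma cells numbered 1245 of 15898 with DESeq2 and 634 of 12715 with thinned counts. The 4 and 2 calls among the 37 lie near that background. With no replicate block, that is without the library pairing, 0 genes were called against stroma and 450 genes and 0 of the 37 against mural cells. The mean sarcoma share with a UMI was 23.7% at 1000 UMIs per cell, 53.0% at 5000 and 83.7% unthinned, with muscle at 3.22%, 13.3% and 18.6%. The cause of these changes was not tested. The settings without Fbn2, with Smarcb1 UMIs or with 5 Rgs5 UMIs were chosen after seeing the data. Few mural cells limit the mural values most in sarcoma 4.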

Other observations

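Genes outside the 37 were also counted in high and other cells. The 42 S-phase genes summed to 2159, 2010, 2820 and 3558 CPM in high cells of sarcomas 1 to 4, against 752, 680, 617 and 694 CPM in the other cells of the same libraries. Ccnd1, the cyclin of early G1, was higher in high cells of each sarcoma, at 1232, 1006, 1294 and 49.6 CPM against 883, 749, 342 and 30.4, and its level in sarcoma 4 was far below the other sarcomas in both. Cdkn2a, which encodes the inhibitor p16 and the p53 regulator ARF, was still counted in high cells, at 167, 85.8, 97.8 and 147 CPM against 200, 73.7, 119 and 112 in the other cells, lower in sarcomas 1 and 3 and higher in sarcomas 2 and 4. High cells were deeper, and cells of 1 library are not replicates, so these values are given with no test.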
